A study of Mus musculus with 18 samples.

Results

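The genes described here encode products by which astrocytes take up transmitter, move water and ions, run their own metabolism and act on neighbouring cells. They are Slc1a2, Slc1a3, Aqp4, Gja1, Glul, Aldoc, Aldh1l1, Clu, S100b and Agt, 10 of the 22180 genes that the array measured under a single symbol. They were picked by name for these functions, with earlier results of these data known. Where a gene had several probe sets (groups of array probes read as 1 value) the one with the highest mean over all arrays was used. Glul had 2 probe sets and the other 9 genes had 1 each. All 10 passed the filter on low values, which left 19016 genes in the tests.

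RNA came from cultured mouse neurospheres, free-floating clusters of neural stem and progenitor cells, labelled as female. There were 6 groups of 3 arrays: mosaic cultures at day 4 and at day 0 of differentiation, Pcdh19 knockout cultures at day 4 and day 0, and wild type cultures at day 4 and day 0. The mosaic cultures were mixes of wild type and knockout cells, in proportions that the labels do not state, and neither the knocked-out allele, the age of the donor animals nor the number of lines is stated. The design text calls the replicates technical, so p-values measure only the spread between these samples, which may be smaller than the spread between cultures.

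Astrocytes surround synapses and blood vessels. They clear glutamate from the synaptic cleft, turn it into glutamine that neurons use again, pass water and ions along the tissue through channels and gap junctions, and secrete proteins such as apolipoproteins. Several of these genes are also active in the radial glia and neural stem cells from which astrocytes arise, and some in oligodendrocytes, so none of them marks a mature astrocyte by itself.

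Values are log2 expression, so that 1 unit is a doubling, and a gene was called when its limma adjusted p (Benjamini-Hochberg, over 19016 genes) was under 0.05. Over all probe sets the arrays of a group correlated at 0.981 to 0.986, and arrays of different groups at 0.955 to 0.987. Pcdh19 itself measured 5.53 to 5.86 in knockout arrays at day 4 against 6.81 to 6.98 in wild type arrays, and 5.39 to 5.68 against 6.66 to 6.85 at day 0. The mosaic arrays measured 6.54, 7.09 and 5.52 at day 4 and 6.03, 6.31 and 5.65 at day 0, so that at day 4 replicate 2 lay above every wild type array and replicate 3 at the level of the lowest knockout array. The 3 mosaic arrays of day 4 thus differ from each other in Pcdh19 by more than knockout and wild type do, and they are kept as 1 group because the labels give them as such. Neither knockout difference passed over all genes (limma adjusted p = 0.195 at day 4 and 0.855 at day 0), and the labels do not say whether this probe set lies in the deleted part of the gene. The arrays measure bulk RNA, in which fewer cells of a type and less RNA per cell cannot be told apart.

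Differentiation changed all 10 genes in each of the 3 kinds of culture. In the mosaic, the knockout and the wild type alike, 8 genes rose and 2 fell, and for each of the 10 genes the 3 arrays of day 4 lay wholly to one side of the 3 arrays of day 0. The risers were the 4 transport and channel genes, the metabolic genes Glul and Aldoc, and the secreted products Clu and S100b. Aldh1l1 and Agt fell. Among all tested genes, 26.2% were called in the mosaic (14.4% higher and 11.9% lower), 27.4% in the knockout (15% higher and 12.4% lower) and 33.6% in the wild type (17.2% higher and 16.3% lower). Arrays of the 2 days did not overlap for 38.1% of all genes in the mosaic (20.3% higher and 17.8% lower), 39.2% in the knockout (22.1% higher and 17.1% lower) and 48.9% in the wild type (27.1% higher and 21.9% lower). The median log2 fold change of the 10 genes was 0.97 in the mosaic, 0.86 in the knockout and 0.84 in the wild type, beside 0.02, 0.02 and 0.09 over all tested genes. Because the 10 genes were chosen with earlier results known, these figures describe them and are no test against all genes. After quantile normalization 61.5% of the calls in wild type differentiation were to the higher side, and with a common array median 44.7%, in place of 51.4%, while the 10 genes kept their counts of 8 higher and 2 lower under both.

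**Figure D1:**
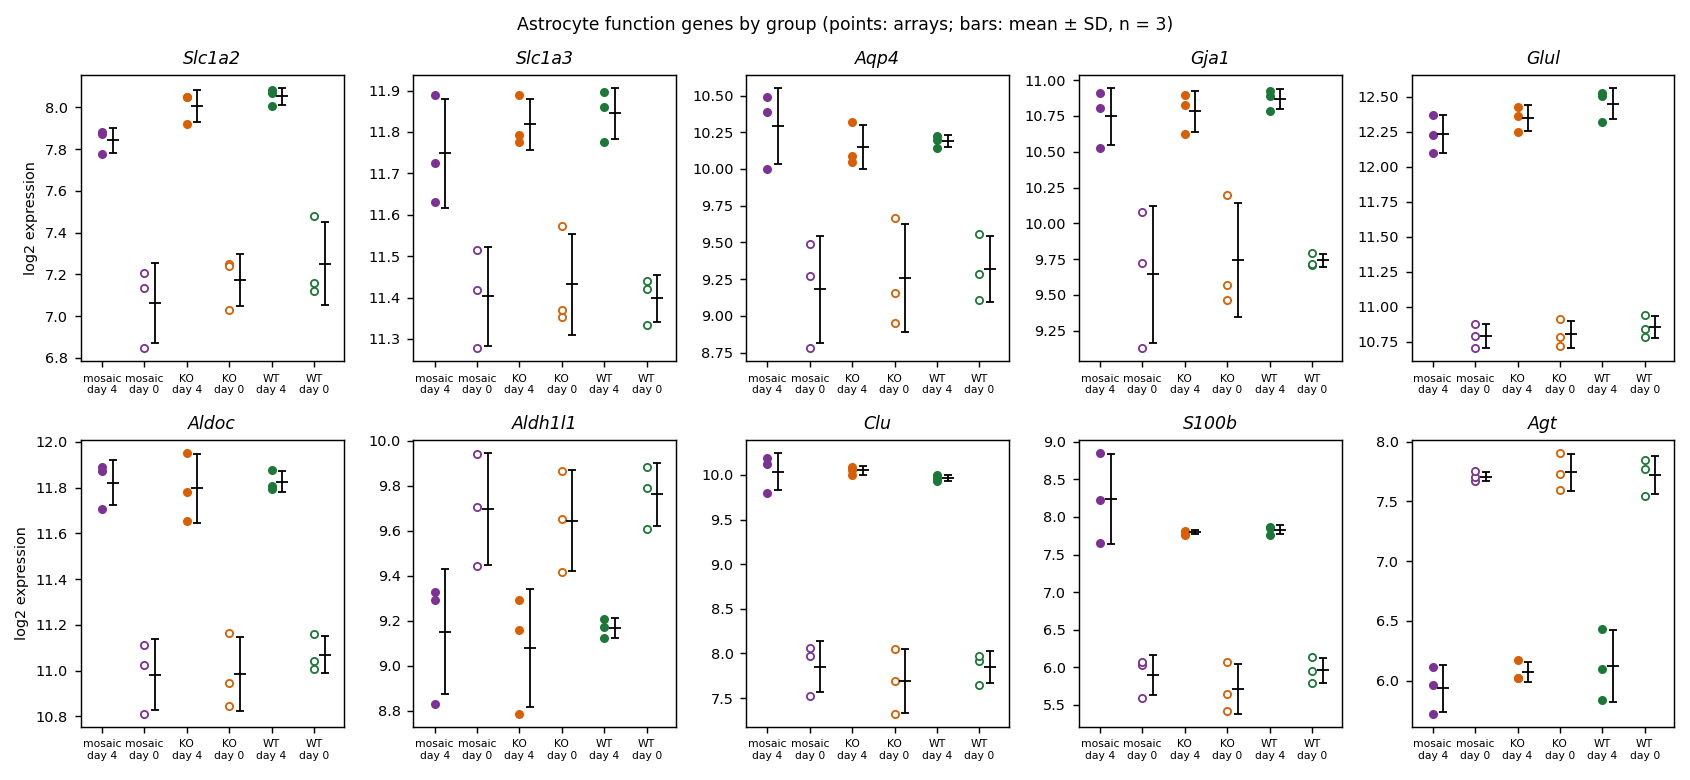
Log2 expression (vertical axis) of the 10 genes in mosaic, knockout (KO) and wild type (WT) cultures; filled points are day 4 arrays, open points are day 0 arrays, and bars are the mean ± SD of 3 arrays. For 8 genes all day 4 points lie above the day 0 points of the same genotype, and for Aldh1l1 and Agt they lie below.

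Among the transport genes, Slc1a2 encodes the glutamate transporter that carries out most glutamate uptake in the adult forebrain. Mosaic arrays measured 7.77, 7.87 and 7.88 at day 4 and 6.85, 7.21 and 7.14 at day 0. Knockout arrays measured 8.05, 7.92 and 8.05 at day 4 and 7.25, 7.03 and 7.24 at day 0, and wild type arrays 8.07, 8.01 and 8.08 against 7.16, 7.48 and 7.12. The day 4 values of each genotype were close together and stood clear of the more scattered day 0 values. The gene rose by 0.78 in the mosaic, 0.84 in the knockout and 0.80 in the wild type (log2, each with SE 0.11 and n = 3 arrays per group), which is 1.72-fold, 1.78-fold and 1.74-fold (limma adjusted p = 4.10e-05, 2.14e-05 and 3.18e-05).

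Slc1a3, the glutamate transporter of radial glia and of early astrocytes, had the smallest rise of the 8. Its day 4 arrays ran from 11.63 to 11.90 and its day 0 arrays from 11.28 to 11.57 over the 3 genotypes, so its lowest day 4 array and its highest day 0 array were only a little apart. The log2 rise was 0.34 in the mosaic, 0.39 in the knockout and 0.45 in the wild type (SE 0.09, limma adjusted p = 0.00916, 0.004 and 0.00126). The mosaic call of Slc1a3 ended without mosaic day 0 replicate 1 (0.28, adjusted p = 0.0538), without mosaic day 4 replicate 2 (0.27, adjusted p = 0.0545) and in a fit on the mosaic arrays alone (adjusted p = 0.0658). Over its 27 alternatives that adjusted p otherwise stayed under 0.05.

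Aqp4, the water channel of astrocyte endfeet, measured 9.998 to 10.49 in mosaic arrays at day 4 against 8.78 to 9.49 at day 0. In knockout arrays it was 10.05 to 10.32 against 8.95 to 9.66, and in wild type arrays 10.15 to 10.23 against 9.11 to 9.56. It rose by 1.11, 0.89 and 0.87 in that order of genotypes (SE 0.19, limma adjusted p = 0.000312, 0.00201 and 0.0023), or 2.16-fold, 1.86-fold and 1.83-fold. The mosaic and knockout arrays of day 0 were the most spread, with SDs of 0.36 and 0.37.

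Gja1 encodes the main connexin of astrocyte gap junctions. In mosaic arrays it measured 10.52, 10.91 and 10.80 at day 4 against 9.13, 9.73 and 10.08 at day 0. Knockout arrays gave 10.83, 10.62 and 10.90 against 9.57, 9.46 and 10.20, and wild type arrays 10.79, 10.89 and 10.93 against 9.79, 9.71 and 9.72. The wild type arrays of day 0 lay within 0.08 of each other, while those of the mosaic spanned 0.95 and those of the knockout 0.74. The rise was 1.10 in the mosaic, 1.04 in the knockout and 1.13 in the wild type (SE 0.20, limma adjusted p = 0.000526, 0.000886 and 0.000429), about 2.15-fold, 2.06-fold and 2.19-fold.

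**Figure D2:**
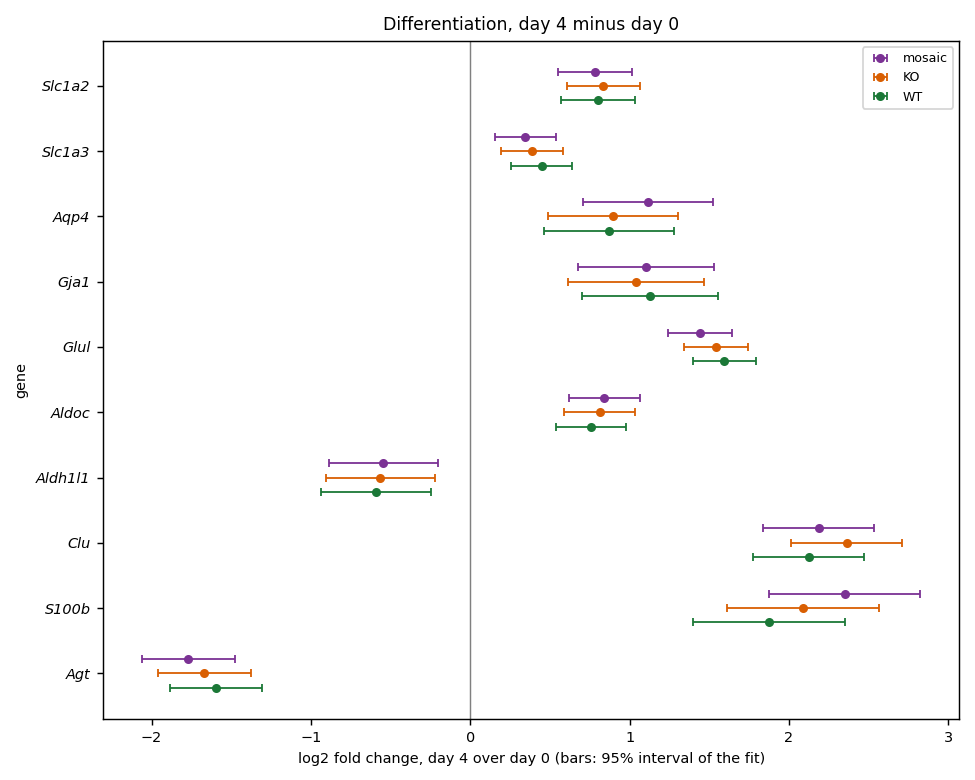
Log2 fold change from day 0 to day 4 (horizontal axis) of each gene in mosaic, KO and WT cultures; points are estimates of the fit and bars their 95% intervals. The 3 genotypes lie close together for every gene, with Clu, S100b and Glul farthest to the right and Agt farthest to the left.

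Of the metabolic genes, Glul encodes glutamine synthetase, the enzyme that turns glutamate taken up by astrocytes into glutamine and that oligodendrocytes also make. Mosaic arrays measured 12.23, 12.37 and 12.10 at day 4 and 10.70, 10.87 and 10.79 at day 0. Knockout arrays measured 12.25, 12.36 and 12.43 against 10.78, 10.91 and 10.72, and wild type arrays 12.32, 12.53 and 12.50 against 10.79, 10.94 and 10.84. The gap between the days was several times the spread within any group. Glul rose by 1.44, 1.54 and 1.59 in mosaic, knockout and wild type (SE 0.09), that is 2.72-fold, 2.91-fold and 3.02-fold, with the smallest limma adjusted p of the 10 genes in each (1.44e-08, 7.12e-09 and 4.38e-09). The second, dimmer Glul probe set, which was examined after the values were seen, rose by 2.10, 1.97 and 2.11.

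Aldoc, the brain form of the glycolytic enzyme aldolase and a gene of astrocytes, ran from 11.66 to 11.95 in day 4 arrays and from 10.81 to 11.17 in day 0 arrays over the 3 genotypes. It rose by 0.84, 0.81 and 0.76 in mosaic, knockout and wild type (SE 0.11, limma adjusted p = 1.33e-05, 1.93e-05 and 3.80e-05), 1.79-fold, 1.75-fold and 1.69-fold.

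Aldh1l1, a folate enzyme whose promoter is widely used to label astrocytes, went the other way. Mosaic arrays measured 8.83, 9.33 and 9.29 at day 4 against 9.44, 9.70 and 9.94 at day 0. Knockout arrays gave 8.79, 9.16 and 9.29 against 9.42, 9.65 and 9.87, and wild type arrays 9.12, 9.17 and 9.21 against 9.61, 9.79 and 9.88. The 2 days came closest to each other in the mosaic and the knockout, and their arrays lay farther apart in the wild type. Aldh1l1 fell by 0.55 in the mosaic, 0.57 in the knockout and 0.59 in the wild type (log2, SE 0.16), or 1.46-fold, 1.48-fold and 1.51-fold lower (limma adjusted p = 0.019, 0.0149 and 0.00985).

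The call of Aldh1l1 ended in the knockout without day 0 replicate 3 (-0.45, adjusted p = 0.0751) or day 4 replicate 1 (-0.42, adjusted p = 0.082). In the mosaic it ended without day 0 replicate 2 (-0.54, adjusted p = 0.0501), day 0 replicate 3 (-0.42, adjusted p = 0.0975) or day 4 replicate 1 (-0.39, adjusted p = 0.105), and in a fit on the mosaic arrays alone (adjusted p = 0.0592). In the wild type the fall of Aldh1l1 was called under all 27 alternatives.

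Of the secreted products, Clu encodes clusterin, an extracellular chaperone also known as an apolipoprotein. In mosaic arrays it measured 10.12, 10.19 and 9.80 at day 4 against 7.53, 7.97 and 8.06 at day 0. Knockout arrays measured 10, 10.06 and 10.09 against 7.69, 7.33 and 8.05, and wild type arrays 9.93, 10 and 9.97 against 7.92, 7.98 and 7.64. The lowest day 4 array of any genotype stood far above the highest day 0 array. Clu rose 4.55-fold in the mosaic, 5.13-fold in the knockout and 4.35-fold in the wild type, with log2 fold changes of 2.19, 2.36 and 2.12 (SE 0.17, limma adjusted p = 6.98e-08, 3.10e-08 and 9.62e-08). By size of rise it ranked 44, 29 and 31 among the 19016 genes.

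S100b encodes a small calcium-binding protein that astrocytes release and that cells of the oligodendrocyte lineage also make. Mosaic arrays measured 7.65, 8.22 and 8.85 at day 4 against 5.59, 6.02 and 6.06 at day 0. Knockout arrays gave 7.76, 7.82 and 7.80 against 5.64, 5.42 and 6.07, and wild type arrays 7.86, 7.87 and 7.76 against 5.79, 5.95 and 6.13. The mosaic arrays of day 4 were by far the most spread, with an SD of 0.60 beside 0.03 in the knockout and 0.06 in the wild type. S100b rose by 2.35 in the mosaic, 2.09 in the knockout and 1.87 in the wild type (log2, SE 0.22), or 5.09-fold, 4.25-fold and 3.66-fold (limma adjusted p = 8.05e-07, 2.75e-06 and 8.42e-06). Oligodendrocyte markers averaged 9.69, 9.58 and 9.26 on the same 3 mosaic arrays of day 4, in the opposite order to S100b, while markers of oligodendrocyte progenitors averaged 9.78, 9.84 and 9.90, in the same order. The part of these cells in the spread of S100b was not tested. Of these 3 arrays, replicate 3 had the most S100b and the least Pcdh19. Replicate 2, with the most Pcdh19, had more S100b than replicate 1. Knockout arrays of day 4, with Pcdh19 from 5.53 to 5.86, had S100b of only 7.76 to 7.82. A relation of the 2 genes was not tested.

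Agt encodes angiotensinogen, the precursor of angiotensin peptides, which astrocytes make in the brain. Mosaic arrays measured 6.12, 5.97 and 5.73 at day 4 against 7.67, 7.70 and 7.75 at day 0. Knockout arrays measured 6.03, 6.02 and 6.17 against 7.91, 7.60 and 7.73, and wild type arrays 6.43, 6.10 and 5.84 against 7.85, 7.55 and 7.77. Every day 4 array lay more than 1 unit below every day 0 array. Agt fell by 1.77 in the mosaic, 1.67 in the knockout and 1.60 in the wild type (SE 0.14), 3.41-fold, 3.18-fold and 3.02-fold lower (limma adjusted p = 9.30e-08, 1.52e-07 and 2.61e-07). By size of fall it ranked 147, 180 and 222 among the 19016 genes.

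The stretch of 250 bases before the transcription start is shown for Agt, which fell most, for Glul, which had the smallest adjusted p, and for Gja1. Sequences are from RefSeq (mouse build GRCm38.p6), 5′ to 3′ on the strand of the gene, and the table held such a window for 8 of the 10 genes (9 windows, as Aldoc had 2). Capitals mark a STAT-type match (TTCNNNGAA) and a TATA box (TATAAA) in Agt, NFI half-sites (TTGGC, here on the opposite strand) in Glul, and an AP-1 match (TGANTCA) in Gja1.
Agt, chr8:124569707-124569956, minus strand: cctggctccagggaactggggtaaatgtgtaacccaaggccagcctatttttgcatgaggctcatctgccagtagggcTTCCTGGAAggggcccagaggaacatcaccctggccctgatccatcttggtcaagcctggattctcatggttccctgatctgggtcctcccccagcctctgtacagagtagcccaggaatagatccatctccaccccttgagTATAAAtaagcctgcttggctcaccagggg
Glul, chr1:153899679-153899928, plus strand: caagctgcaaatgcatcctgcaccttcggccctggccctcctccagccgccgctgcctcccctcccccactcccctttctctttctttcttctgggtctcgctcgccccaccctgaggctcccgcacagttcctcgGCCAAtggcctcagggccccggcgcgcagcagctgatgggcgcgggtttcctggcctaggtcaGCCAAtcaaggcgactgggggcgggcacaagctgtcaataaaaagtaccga
Gja1, chr10:56377050-56377299, plus strand: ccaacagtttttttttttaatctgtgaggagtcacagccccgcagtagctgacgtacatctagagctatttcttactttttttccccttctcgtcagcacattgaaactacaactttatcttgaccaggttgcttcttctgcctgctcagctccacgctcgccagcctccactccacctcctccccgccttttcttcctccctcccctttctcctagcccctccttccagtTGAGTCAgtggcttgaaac

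All motifs were searched on both strands. The STAT-type motif was found in 3 of the 9 windows (Agt, 1 window of Aldoc, and Slc1a3) and in 7.02% of all 32851 windows of this length. The letters of the TATA box were in 2 (Agt and Slc1a3), against 12.4% of all windows. In Agt they lay 30 to 25 bases before the start, and in Slc1a3 on the opposite strand, 161 to 156 bases before it. The AP-1 motif was in 1 (Gja1), against 6.75%. NFI half-sites were in 5 windows, against 41.5%, and the CCAAT box (CCAAT) in 4, against 33.8%. These last 2 motifs overlap where GCCAAT occurs, as it does in both sites of Glul. A match is only a run of letters in this window, and no binding was measured.

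Between genotypes none of the 10 genes was called, on either day or in the size of its differentiation. The same held for all 19016 genes, with 0% called in each of the 9 comparisons by limma. Unadjusted p-values under 0.05 were found for 15.9% of all genes between mosaic and wild type at day 4, 6.07% between mosaic and knockout at day 4 and 12.7% between knockout and wild type at day 4. At day 0 the same 3 comparisons gave 4.3%, 4.24% and 3.61%. Among the 10 genes and 9 comparisons, 1 value had an unadjusted p under 0.05, which was Glul in the mosaic against the wild type at day 4 (-0.22 ± 0.09 SE, unadjusted p = 0.0319, limma adjusted p = 0.28). Its mosaic arrays of day 4 (12.10 to 12.37) overlapped those of the wild type (12.32 to 12.53), and the second Glul probe set gave 0.14 in this comparison.

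At day 4, mosaic minus wild type differences ran from -0.22 (Glul) to 0.41 (S100b) on the log2 scale, and the 95% intervals of the 10 genes together spanned -0.55 to 0.89. Mosaic minus knockout differences ran from -0.17 (Slc1a2) to 0.45 (S100b), with intervals from -0.46 to 0.92. Knockout minus wild type differences ran from -0.11 (Glul) to 0.08 (Clu), with intervals from -0.51 to 0.44. These comparisons share arrays with each other, so they are not independent. The upper ends of both mosaic ranges are those of S100b and depend on single arrays. Its mosaic replicates 2 and 3 of day 4 (8.22 and 8.85) lay above every wild type and knockout array. Replicate 1 (7.65) lay below them all. Without mosaic day 4 replicate 3 the S100b difference was 0.11 from the wild type and 0.14 from the knockout, and without replicate 1 it was 0.71 (limma adjusted p = 0.0754) and 0.74 (limma adjusted p = 0.177). Changes within these intervals could have been present without being called.

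Slc1a2 was the member whose mosaic arrays of day 4 lay apart from both other genotypes. They measured 7.77 to 7.88, below the knockout arrays (7.92 to 8.05) and below the wild type arrays (8.01 to 8.08). The differences were -0.17 from the knockout (limma adjusted p = 0.868) and -0.21 from the wild type (limma adjusted p = 0.354), each with SE 0.11. Arrays did not overlap for 8.68% of all genes between mosaic and knockout (4.24% higher and 4.44% lower) and for 18.2% between mosaic and wild type (9.62% higher and 8.55% lower) at day 4, beside 1 of these 10 genes in each. Without mosaic day 4 replicate 1, 262 genes were called between mosaic and wild type at day 4 and none of them was among the 10.

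At day 0, mosaic minus wild type differences of the 10 genes ran from -0.19 (Slc1a2) to 0.01 (Clu), and mosaic minus knockout from -0.11 (Slc1a2) to 0.18 (S100b). Knockout minus wild type differences ran from -0.25 (S100b) to 0.03 (Slc1a3). For none of the 10 genes did the arrays of 2 genotypes stand apart at day 0, against 11.3% of all genes between mosaic and wild type (5.66% higher and 5.63% lower), 10% between mosaic and knockout (5.14% and 4.88%) and 9.2% between knockout and wild type (4.76% and 4.44%). At day 4 the arrays of knockout and wild type stood apart for none of the 10 genes, against 16.8% of all genes (8.56% higher and 8.27% lower).

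**Figure D3:**
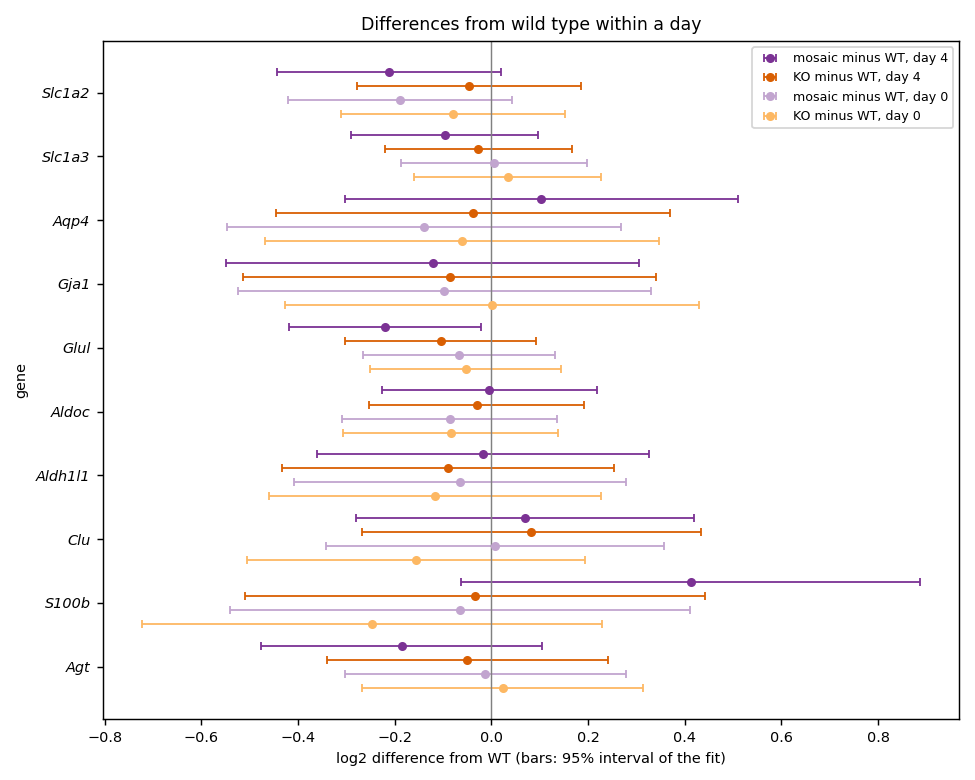
Log2 difference of mosaic and KO cultures from WT cultures on each day (horizontal axis) for the 10 genes; points are estimates and bars 95% intervals of the fit. All intervals span 0 except that of Glul for mosaic minus WT at day 4, and the widest are those of S100b.

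The rise or fall over differentiation was also set against that of the other genotypes. For the mosaic minus the wild type, the difference of the 2 log2 fold changes ran from -0.17 (Agt) to 0.48 (S100b), with 95% intervals from -0.63 to 1.15 over the 10 genes and a lowest limma adjusted p of 0.543. The mosaic minus the knockout gave -0.17 (Clu) to 0.26 (S100b), with intervals from -0.67 to 0.94 and a lowest limma adjusted p of 0.999. For the knockout minus the wild type it ran from -0.09 (Gja1) to 0.24 (Clu), with intervals from -0.69 to 0.89 and a lowest limma adjusted p of 0.776. Single arrays decide several of these ends. Without mosaic day 4 replicate 3 the S100b difference of mosaic and wild type was 0.17 and that of mosaic and knockout -0.04, and without replicate 1 they were 0.77 and 0.56. When 1 array at a time was left out, the end given by Agt ran from -0.32 to -0.02 and the Clu difference of mosaic and knockout from -0.36 to 0.01.

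Within groups, deviations of the genes from array to array were compared after the mean of each group was taken away. Pearson's r over the 18 arrays was positive for 36 of the 45 pairs of the 10 genes (80%), with a median of 0.43, beside 50% of the pairs of all 19016 genes, with a median of 0. It was highest for Aqp4 with Gja1 (0.90) and Aldoc with Aldh1l1 (0.80). Agt had r from -0.27 to 0.23 against the other 9, and Glul from -0.25 to 0.51. All 9 pairs below 0 held Agt or Glul. The 18 points share their arrays, and these values are given as a description.

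**Figure D4:**
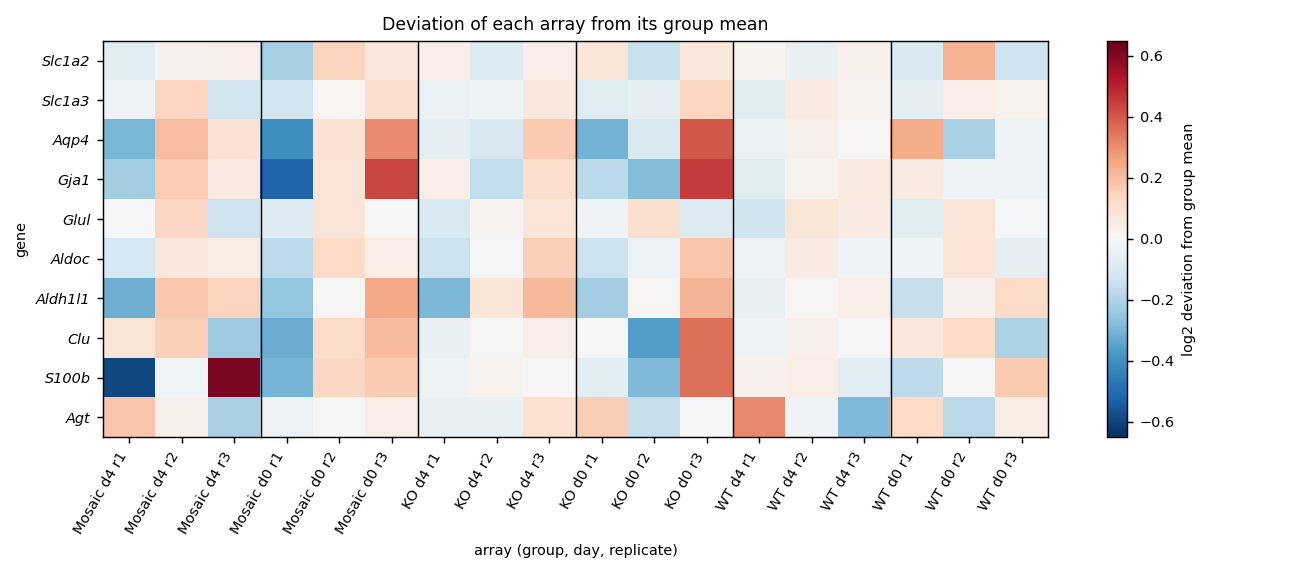
Deviation of each array (columns, ordered by group and replicate) from the mean of its group for the 10 genes (rows), in log2 units from blue (below) to red (above). The mosaic day 0 array of replicate 1 is blue for all 10 genes, and the KO day 4 array of replicate 3 is red for all 10.

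Of the arrays, mosaic day 0 replicate 1 lay below its group mean for all 10 genes, by 0.24 on average. Mosaic day 0 replicate 3 and knockout day 4 replicate 3 lay above it for all 10, by 0.16 and 0.10, and knockout day 0 replicate 3 for 8, by 0.21. Markers of other cells differed on the same arrays. Mosaic day 0 replicate 1 had the lowest oligodendrocyte marker average of its group (5.73, against 6.07 and 6.12) and the highest average of neural stem cell markers (9.54, against 9.32 and 9.25). Knockout day 0 replicate 3 had the highest oligodendrocyte average of its group (6.22, against 5.87 and 5.86) and the lowest stem cell average (9.33, against 9.50 and 9.47). Mosaic day 4 replicate 1 went the other way. The 10 genes deviated by -0.14 on average there. Its oligodendrocyte average was the highest of its group (9.69, against 9.58 and 9.26). Its stem cell average was the lowest (8.25, against 8.37 and 8.30). Knockout day 4 replicate 3 had the highest oligodendrocyte average of its group (9.49, against 9.10 and 9.01). Its stem cell average was 8.38, against 8.38 and 8.28. The part of these cells in the deviations was not tested. Wild type arrays stayed within 0.03 of their group means on average. Aldh1l1, which fell with differentiation, and Aqp4 and Gja1, which rose, thus shared the direction of their deviations between replicates (r = 0.71 and 0.67 with Aldh1l1) while the days moved them in opposite directions.

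The gene outside the 10 with the most similar pattern was sought for each by Pearson's r over the 18 arrays, among 19006 genes. Because the days part the arrays, r within each day (9 arrays) is given after it, day 4 first. The nearest gene was Sfxn5 for Slc1a2 (0.97, then 0.59 and 0.77), Dag1 for Slc1a3 (0.98, then 0.95 and 0.92), and S1pr1 for both Aqp4 (0.97, then 0.84 and 0.86) and Gja1 (0.98, then 0.58 and 0.97). Dag1 encodes dystroglycan, a receptor for the extracellular matrix, and S1pr1 a receptor for sphingosine phosphate. It was Ccdc190 for Glul (0.99, then 0.78 and 0.67), Tubb4a for Aldoc (0.99, then 0.63 and 0.87) and Gcnt4 for Aldh1l1 (0.95, then 0.90 and 0.70). For Clu it was Gnao1 (0.99, then 0.66 and 0.81) and for S100b Dock9 (0.99, then 0.94 and 0.76). Agt was nearest to Hspa5 (0.99, then 0.54 and 0.48), the chaperone of the endoplasmic reticulum, whose log2 fold change over differentiation was -2.27 in the mosaic, -2.40 in the knockout and -2.36 in the wild type.

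Other astrocyte genes moved in both directions. Of 80 tested genes of the same kinds, 21 rose and 17 fell in the mosaic, 25 and 15 in the knockout and 28 and 15 in the wild type. Over all genes 14.4% rose and 11.9% fell in the mosaic, 15% and 12.4% in the knockout, and 17.2% and 16.3% in the wild type. The counts by role stand beside these shares and were not compared by a test. Of 17 transport and channel genes 6 rose and 1 fell in the mosaic, 8 rose and 0 fell in the knockout, and 9 rose and 0 fell in the wild type. Slc39a12, a zinc transporter, rose by 2.92, 2.95 and 2.83 in that order, Slc38a3, which exports glutamine, by 0.86, 1.04 and 0.98, Mlc1, a membrane protein of astrocyte endfeet, by 0.79, 0.77 and 0.95, and the bicarbonate transporter gene Slc4a4 by 0.69, 0.84 and 0.73. The potassium channel gene Kcnj10, which clears potassium with Aqp4 at the endfeet, did not pass (0.14, 0.12 and 0.21).

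Of 22 metabolic genes 7 rose and 2 fell in the mosaic, 9 rose and 0 fell in the knockout, and 10 rose and 0 fell in the wild type. The metal-binding protein gene Mt3 rose by 1.502, 1.70 and 1.56, the glutathione transferase gene Gstm1 by 1.24, 1.48 and 1.29, and Gldc, of glycine breakdown, by 0.69, 0.68 and 0.73. Dio2, which activates thyroid hormone, measured 0.58 in the mosaic and 0.59 in the knockout without passing and rose by 0.75 in the wild type, while its second, dimmer probe set gave 0.62, 0.04 and 0.28.

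Of 16 genes listed as secreted or surface-bound products, 8 rose and 3 fell in the mosaic and in the knockout. In the wild type 9 rose and 3 fell. The list also held Ndrg2, which encodes a cytosolic protein and is named after its values were seen. Its group means were higher at day 4 than at day 0 in each genotype (11.36 against 10.63 in the wild type). The glypicans Gpc5 and Gpc4 rose, by 1.83, 1.90 and 1.92 for Gpc5 and by 1.51, 1.70 and 1.36 for Gpc4. Chrdl1, a secreted BMP antagonist, had log2 fold changes of -1.61, -1.43 and -1.54, and Timp3, an inhibitor of matrix proteases, of -0.92, -0.98 and -1.05, so Agt was not the only secreted product to fall.

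Among receptors and regulators all calls were to the lower side. Of 11 receptors 0 rose in any genotype, while 4 fell in the mosaic and 5 each in the knockout and the wild type. Itga6, an integrin, had log2 fold changes of -0.88, -0.97 and -1.01, Cd44, the hyaluronan receptor, of -0.77, -0.39 and -0.78, and Grm5, a glutamate receptor, of -0.83, -0.55 and -0.73. Ntsr2, a neurotensin receptor, measured -0.38 in the mosaic without passing and fell by 0.78 in the knockout and 0.74 in the wild type. Of 14 regulators 0 rose and 7 fell in each genotype. Stat3, a transcription factor that drives Gfap, had log2 fold changes of -1.27, -1.29 and -1.49, Id3 of -0.93, -1.49 and -1.42, Cebpd of -1.61, -1.87 and -1.21, and Nfib of -0.91, -0.84 and -1.01. Sox9, a factor of astrocytes and their precursors, did not pass (-0.13, 0.11 and 0.11).

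Of the genes linked to reactive astrocytes, more fell than rose. Of 17 tested, 2 rose and 6 fell in the mosaic, 3 and 6 in the knockout, and 2 and 7 in the wild type. Over all genes 14.4% rose and 11.9% fell in the mosaic, 15% and 12.4% in the knockout, and 17.2% and 16.3% in the wild type. Cd109 had log2 fold changes of -2.60, -2.54 and -2.54, Emp1 of -2.54, -2.68 and -2.49 (-0.21, -0.13 and -0.51 at its second, dimmer probe set), and Cp, the copper carrier ceruloplasmin, of -1.73, -1.30 and -1.59. S1pr3 and Serpina3n, chosen after their values were seen, went the other way by group means. In mosaic, knockout and wild type, S1pr3 had 6.48, 7.15 and 6.89 at day 4 against 5.27, 5.39 and 5.38 at day 0. Serpina3n had 8.75, 8.50 and 8.52 against 7.71, 7.39 and 7.66. Lcn2, Steap4 and Serping1, also of this list, had group means below the array medians of 4.85 to 4.99. Gfap, the intermediate filament that defines astrocytes in most stains, fell by 1.11 in the mosaic, 1.20 in the knockout and 1.68 in the wild type (limma adjusted p = 0.00521, 0.00297 and 0.000161). Its group means were 7.11 at day 4 against 8.22 at day 0 in the mosaic, 6.90 against 8.10 in the knockout and 6.75 against 8.43 in the wild type. Of the 11 astrocyte markers used as a check (the 10 genes and Gfap), 8 therefore rose and 3 fell in every genotype.

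**Figure D5:**
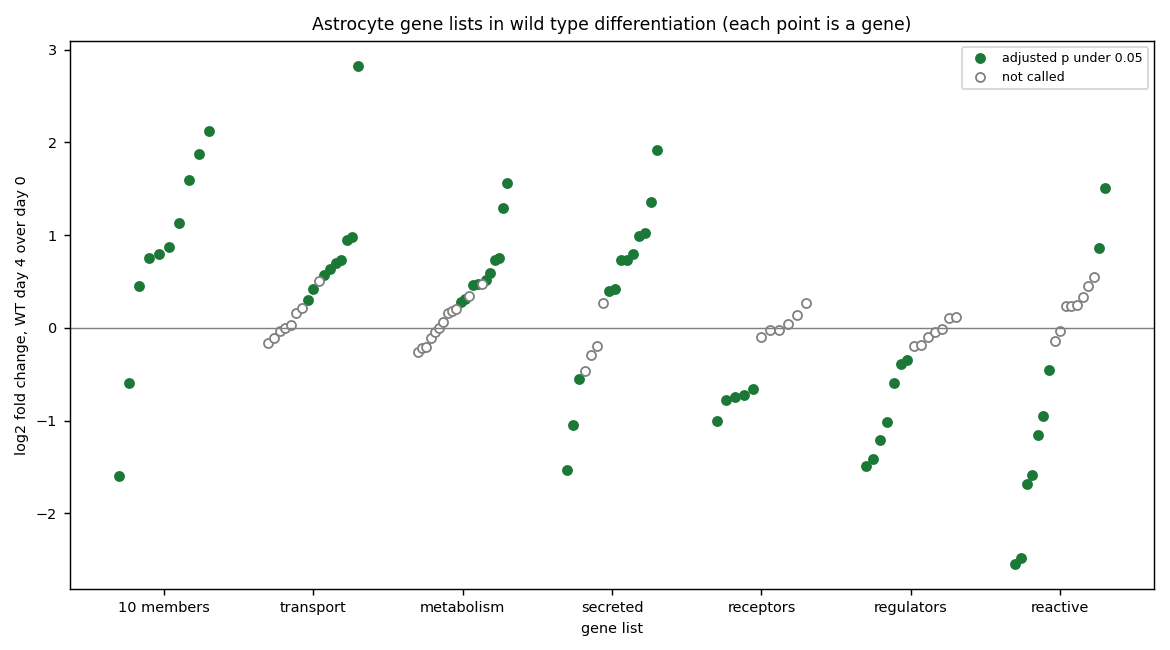
Log2 fold change from day 0 to day 4 in wild type cultures (vertical axis) of the 10 genes and of 6 further astrocyte lists (horizontal axis), each point a gene; green points had a limma adjusted p under 0.05 and open points did not. Receptor and regulator genes hold called points only below 0.

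Relatives of the 10 genes gave a view of each family. Over all genes 14.4% rose in the mosaic, 15% in the knockout and 17.2% in the wild type, while 11.9%, 12.4% and 16.3% fell. Of 5 other Slc1a transporters, Slc1a1, the glutamate transporter of neurons, rose by 2.03 in the mosaic, 1.82 in the knockout and 1.39 in the wild type, and Slc1a5, a transporter of neutral amino acids, had log2 fold changes of -1.27, -1.15 and -1.20, although its second probe set gave -0.11, 0.02 and 0.13. The other 3 did not pass. Of 8 other aquaporins 1 rose in the mosaic, 1 in the knockout and 5 in the wild type, and 0 fell. Aqp9, a glycerol channel, was the one called in all 3 genotypes (0.95, 1.09 and 0.96). Aqp1, Aqp3 and Aqp2 rose in the wild type by 0.41, 0.39 and 0.36. They measured 0.41, 0.10 and -0.04 in the mosaic and 0.20, -0.19 and -0.01 in the knockout. None of the differences between genotypes in their change was called. Aqp3 had group means of 4.37 to 4.83, below the array medians of 4.85 to 4.99. Of 9 tested connexins Gjc3 and Gjd2 rose in all 3, Gjc3, a connexin of oligodendrocytes, by 1.21, 0.53 and 0.63, and Gjd2, a connexin of neurons, by 1.02, 0.67 and 0.54. The astrocyte connexin gene Gjb6 measured 0.32, 0.50 and 0.50 without passing. Its group means of 4.10 to 4.65 also lay below the array medians, so a change may have been missed.

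Aldh1l2, the mitochondrial counterpart of Aldh1l1, had log2 fold changes of -1.69, -2.02 and -2.14. Other relatives went both ways by group means. Aldh1a1 and Aldh1a3 were lower at day 4 than at day 0 in each genotype (5.63 against 6.17 and 5.34 against 5.56 in the wild type). Aldh1b1 was higher in each (5.59 against 5.33 in the wild type). Aldh1a2 was higher in the mosaic and the wild type and lower in the knockout. Of 9 tested S100 genes 6 rose and 1 fell in the mosaic, 6 and 2 in the knockout, and 5 and 1 in the wild type. The shares over all genes given above stand beside these counts too. S100a16 rose by 1.57, 1.31 and 1.43 and S100a1 by 1.10, 1.26 and 1.20, while S100a10, an annexin partner, had log2 fold changes of -2.42, -2.12 and -2.19.

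Markers of other cell types moved with the days as well. Over all genes 26.2% were called in the mosaic, 27.4% in the knockout and 33.6% in the wild type. All 9 tested oligodendrocyte markers rose in each genotype, and their average level ran from 9.26 to 9.69 in mosaic arrays at day 4 against 5.73 to 6.12 at day 0, from 9.01 to 9.49 against 5.86 to 6.22 in the knockout, and from 9.11 to 9.69 against 5.997 to 6.09 in the wild type. The average of oligodendrocyte progenitor markers was also higher at day 4. It ran from 9.78 to 9.90 against 8.97 to 9.20 in the mosaic. In the knockout it ran from 9.67 to 9.93 against 8.83 to 9.17, and in the wild type from 9.70 to 9.81 against 8.93 to 9.25. Of 11 neuronal markers 8 rose and 0 fell in each genotype. Of 8 markers of neural stem cells 5 fell in each, and 1 rose in the mosaic, 2 in the knockout and 1 in the wild type. The part of these cell types in the changes of the 10 genes was not tested. Averages of microglial and endothelial markers lay between 4.44 and 4.95 on all arrays, close to the array medians of 4.85 to 4.99, and 0 of 7 endothelial markers was called in any genotype.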

How the data were processed

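The deposited values are normalized expression per probe set on a log2 scale, 1 column per array, as read from the values themselves (0.722 to 13.97); how the authors normalized them, and the base of the log, no label or header states. Arrays carried biotin-labelled RNA, per the labels' protocols. No detection calls or scan dates were used, and the number of arrays limits the precision.

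Of 41345 probe sets, 23521 had 1 symbol in the platform annotation, 1814 several and 16010 none listed, and 23328 symbols were matched through Entrez identifiers in a RefSeq table of GRCm38.p6. Each gene was represented by its brightest probe set. Genes above the 25th percentile of their array on at least 3 arrays were tested.

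All 18 arrays entered 1 fit of 6 group means (limma 3.58.1, lmFit and eBayes, two-sided, in R 4.3.3), with 12 residual and 4.36 prior degrees of freedom, and 12 contrasts were taken. The fit was tested on simulated data. The 10 genes and the lists were chosen with earlier results of these data known. The text names the 10 genes, their relatives, their nearest genes and from every list no more than 4 called genes. Those 4 had the largest change in wild type differentiation. Named besides are uncalled genes given for their values and genes said to have been chosen after their values were seen. The alternatives changed the scaling (quantiles, or equal array medians), the filter (none, or the 50th percentile) and the probe set (mean over a gene). They also changed the fit (replicate number as block, robust trended variances, compared groups alone), left out each array in turn, and, chosen after seeing the data, used the second Glul probe set.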

Additional observations from a re-analysis of the deposited data

How the results depend on the processing

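Of the 10 genes, 10 were called in wild type differentiation under all 27 alternatives, 9 or 10 in the knockout when 1 array was left out, and 9 or 10 in the mosaic, where a fit on the mosaic arrays alone called 8. Every lost call was of Aldh1l1 or Slc1a3, no called value changed sign, and between genotypes 0 of the 10 genes was called under any alternative. Over all genes the 9 comparisons between genotypes gave 0 to 5 calls under the alternatives, except that leaving out mosaic day 4 replicate 1 gave 262 for the mosaic against the wild type and 10 for the mosaic against the knockout at day 4. With the replicate number as a block (replicate block), 10 of the 10 genes were called in each genotype's differentiation and 4984, 5208 and 6328 of all genes in the mosaic, the knockout and the wild type. Arrays that share a number had r of their deviations from the group means with a median of 0.03 (45 pairs, -0.15 to 0.17), against -0.01 for 90 pairs of different numbers, and 10 of 18 arrays correlated best with their own number. Between the days of 1 genotype all 9 same-number pairs were positive (0.02 to 0.16, 2 over 0.1), and the mean deviation of the 10 genes had the same sign in 9 of 9. This is a hint from the data, not from the design, which states no pairing, so the numbers were not taken to pair the samples. In 0 of 15 pairs of groups did all 3 exceed 0.1, but most of these pairs are between genotypes. The block used the same numbers over all genotypes, so pairing within a genotype was not tested. Array background was not at hand, so low levels have no detection limit here.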

Other observations

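Genes around the glutamate cycle, which Slc1a2, Slc1a3 and Glul serve, had calls in both directions over differentiation, as all genes did. Of 14 tested, 3 rose and 2 fell in the mosaic, 5 rose and 3 fell in the knockout, and 5 rose and 3 fell in the wild type, where 26.2%, 27.4% and 33.6% of all genes were called. Asns, which makes asparagine from glutamine, had log2 fold changes of -1.47, -1.40 and -1.45 in mosaic, knockout and wild type. Slc38a1, a glutamine importer of neurons, had -0.61, -0.58 and -0.82. Gad1, which makes the transmitter GABA from glutamate, measured 0.28 in the mosaic without passing and rose by 0.41 in the knockout and 0.73 in the wild type. Abat, which breaks GABA down, was called in all 3 (0.57, 0.42 and 0.45) and was chosen after its values were seen.

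Beside the fall of Agt, few other genes of the angiotensin system were called. Of 8 tested genes, 0 were called in the mosaic and in the knockout and 1 in the wild type, the receptor gene Agtr2 (0.37 in the mosaic, 0.29 in the knockout and 0.49 in the wild type). Over all genes 26.2%, 27.4% and 33.6% were called in mosaic, knockout and wild type. The converting enzyme gene Ace measured 0.30, -0.02 and 0.18 and the receptor gene Agtr1a -0.26, 0.33 and 0.35 without passing. Group means were low, at 3.64 to 4.13 for Agtr2, 4.07 to 4.54 for Agtr1a and 4.51 to 4.85 for Ace. The array medians were 4.85 to 4.99, so changes of these genes may have been missed.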
